A study of Mus musculus with 8 samples.

Results

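The serine, folate and asparagine synthesis enzymes described here are 10 genes, Phgdh, Psat1, Psph, Shmt2, Mthfd2, Mthfd1l, Aldh1l2, Asns, Aldh18a1 and Pycr1, out of 24421 rows of a table of raw counts per gene. They were chosen by name and not by a threshold on values. All are amino acid or one-carbon synthesis enzymes known to be regulated by the transcription factor ATF4. The choice was made with earlier results of these data known. All 10 passed the filter on low counts, which kept 13540 genes. RNA was sequenced from endothelial cells of mouse embryonic brain at E14.5 in the C57Bl6 strain, in 4 libraries heterozygous for a mutation of Flvcr2, a membrane transporter gene, and 4 knockout libraries. The Flvcr2 mutation itself leads to GFP, and cells positive for GFP and for the endothelial surface protein CD31 were sorted. Both genotypes therefore carry the mutation, and no wild-type group is included. Each library came from 2000 to 5000 cells. Nothing in the labels ties a library to its own embryo, so the p-values describe variation among these libraries, some of which may be technical. The comparison asks how transcripts of brain endothelial cells differ when both copies of Flvcr2 are mutated.

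These enzymes make non-essential amino acids and the carbon units carried by folate. Phgdh, Psat1 and Psph turn the glycolytic intermediate 3-phosphoglycerate into serine, and mitochondrial Shmt2 splits serine into glycine and a carbon unit. Mthfd2 and Mthfd1l oxidise and release this unit for the synthesis of purines and thymidylate, while Aldh1l2 oxidises it to carbon dioxide. Asns makes asparagine from aspartate and glutamine, while Aldh18a1 and Pycr1 carry glutamate to proline, a major residue of collagen. ATF4 is a bZIP transcription factor whose translation increases when the initiation factor eIF2 is phosphorylated, and it binds C/EBP-ATF response elements in its target genes. In embryonic brain, Phgdh is also known as an enzyme of radial glia, the neural progenitors that touch the vessels.

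The response element is shown first because it lies close to the start site in a pair of the genes with the widest difference between genotypes. The letters TGATGNAA were searched on both strands in windows of 300 bases, from 250 bases before to 50 bases after each start site (RefSeq, GRCm38.p6). They occurred in 3.97% of all 32851 windows. Windows were found for 9 of the 10 enzyme genes, and 2 of these genes, Asns and Pycr1, held the letters. The match began 23 bases upstream of the start in Asns and 103 bases upstream in Pycr1. The 120 bases before the start are printed 5′ to 3′ on the gene's strand, with the match in capitals, beside those of Mthfd2, the enzyme gene with the largest fitted fold change, whose window held no match (its start in the table lies inside the longer annotated gene). A match is a run of letters and not a measured binding site, and sites elsewhere in these genes were not searched.
Asns, chr6:7693210-7693329, minus strand: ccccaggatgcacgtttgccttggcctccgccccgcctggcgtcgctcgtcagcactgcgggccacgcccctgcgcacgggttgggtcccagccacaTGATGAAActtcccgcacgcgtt
Pycr1, chr11:120643749-120643868, minus strand: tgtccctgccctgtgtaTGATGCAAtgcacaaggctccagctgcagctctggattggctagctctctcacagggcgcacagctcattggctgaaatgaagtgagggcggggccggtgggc
Mthfd2, chr6:83317605-83317724, minus strand: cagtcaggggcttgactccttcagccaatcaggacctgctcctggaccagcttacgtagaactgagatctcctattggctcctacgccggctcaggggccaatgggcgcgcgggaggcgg

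The libraries held 9.11 to 35.9 M counts, and knockout 4 was the deepest. Levels are given in CPM, counts scaled to a common library total, with library sizes scaled by TMM, an edgeR scaling that assumes most genes are unchanged. Flvcr2, listed under its older symbol Mfsd7c, was at 276 to 578 CPM in heterozygous libraries, against 227 to 393 CPM in the knockouts. These ranges overlapped, and reads from a mutant transcript may be counted there too, so its level is no check of the genotype labels. The 11 endothelial markers summed to 6651 to 11655 CPM in heterozygous libraries, against 9046 to 12588 CPM in the knockouts. Heterozygous 2 had 0 and knockout 1 had 1 count of Xist, and both held reads of Ddx3y, which is Y-linked. Heterozygous 3 and 4 held counts of both Xist (442 and 861) and Ddx3y (28 and 56), as did knockout 4 (1135 and 6). The source of these mixed reads was not tested.

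Transcripts of other cell types were present in the sorted cells, and by the mean log2 level of their markers they were lower in knockout libraries, with overlap for single lists. The mean log2 CPM of 13 radial glia markers was 4.40 to 5.59 in heterozygous libraries, against 2.54 to 4.47 in the knockouts, while their summed level was 1659 to 1778 and 1469.7 to 1755 CPM, of which Vim, also expressed by other cells, made up 868 ± 118 and 1059 ± 124 CPM. Summed levels were 289.8 to 1867 against 94.3 to 291 CPM for 12 neuron markers, 371 to 516 against 40.7 to 590.1 CPM for 10 pericyte markers and 508 to 1498 against 134 to 878 CPM for 10 microglia markers. For 8 red cell markers, of which the adult globins Hba-a1 and Hbb-bs were at 0 in every library, they were 237 to 611 against 19.3 to 52.0 CPM. An other-cell score, the mean over these 5 lists, was 4.43 to 5.24 in heterozygous libraries, against 2.31 to 3.6 in the knockouts, so it separated the genotypes, and its part and that of the genotype cannot be told apart. In bulk samples, fewer cells of a type and less RNA per cell cannot be told apart.

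Of the 10 enzyme genes 6 rose and 0 fell in knockout cells (edgeR quasi-likelihood test, adjusted p under 0.05 over all tested genes). The 6 were Asns, Mthfd2, Pycr1, Aldh18a1, Phgdh and Shmt2. Among all 13540 tested genes 5.53% were called higher and 4.02% lower, 9.55% in all. Higher genes made up 57.9% of all calls, but 42.6% with library size alone, which moved the median log2 fold change over the 13540 genes from -0.03 to -0.15 and ended the calls of Phgdh and Shmt2. The median log2 fold change of the 10 genes was 1.43, against -0.03 over all tested genes. All 10 had a fold change above 0, as did 47.9% of tested genes. The enzymes were chosen with earlier results of these data known, so their excess over all genes is not independent evidence. For 5 of the 10 (Asns, Mthfd2, Mthfd1l, Aldh18a1 and Pycr1) every knockout library lay above every heterozygous library, against 9.7% of all tested genes. The reverse order held for 7.9% of tested genes, and either order for 17.6%. Between 4 and 6 of the 10 genes were called when 1 library was left out, and 3 (Asns, Mthfd2 and Pycr1) without both heterozygous 2 and knockout 1, the pair of libraries with Ddx3y reads and at most 1 count of Xist. With the other-cell score as a covariate none of the 10 was called, and of all genes 0 were (1023 at an unadjusted p under 0.05 in edgeR, 1 of them among these enzymes, Pycr1; DESeq2 without a covariate called 2221 genes and 8 of these enzymes). With that covariate the median log2 fold change of the 10 genes was 0.65, while their median SE went from 0.36 to 0.77, and 4 of them (Psat1, Psph, Shmt2 and Aldh1l2) changed sign.

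**Figure D1:**
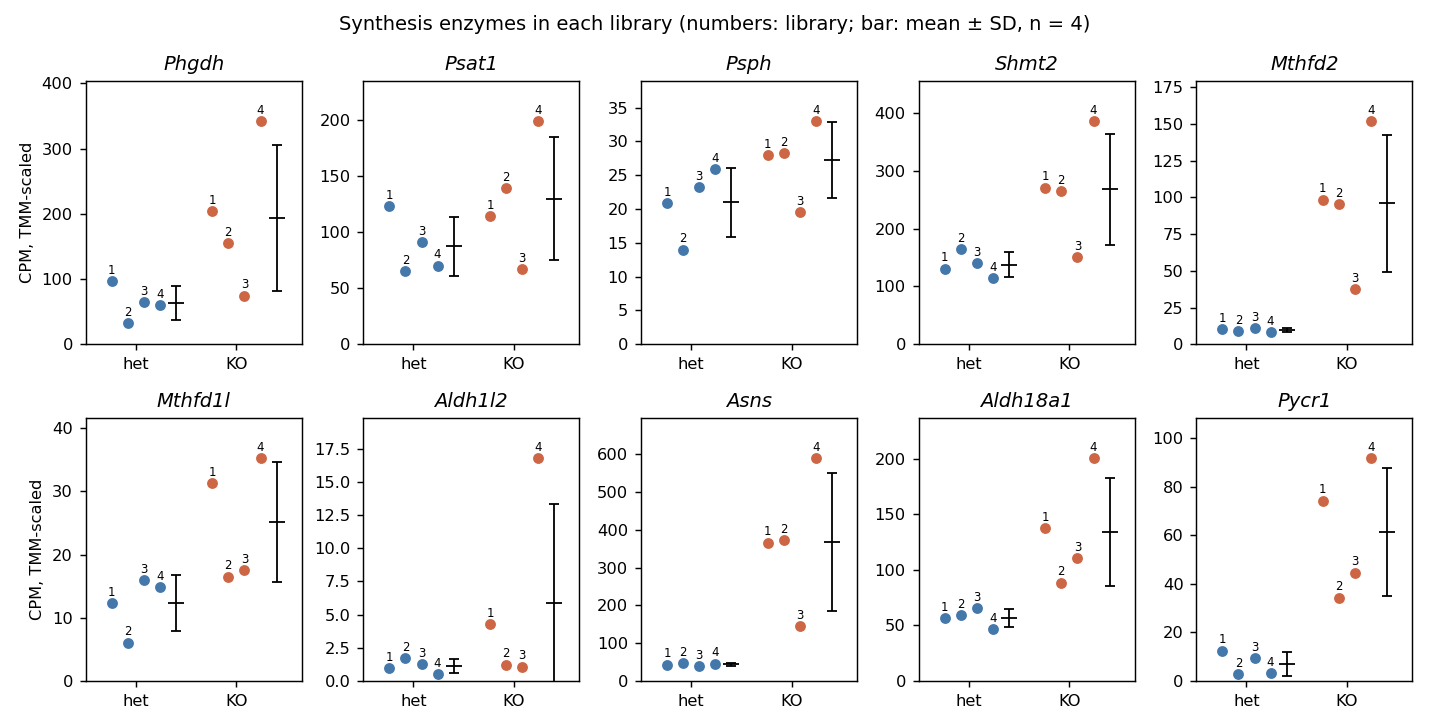
Level of each enzyme gene in CPM (y axis, linear from 0, a separate scale per panel) in heterozygous (het, blue) and knockout (KO, orange) libraries, numbered 1 to 4, with mean ± SD beside each group (the lower SD bar of Aldh1l2 is cut at 0). Knockout 4 is the highest knockout library in all 10 panels, and the heterozygous libraries of Asns and Mthfd2 lie close together.

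**Figure D2:**
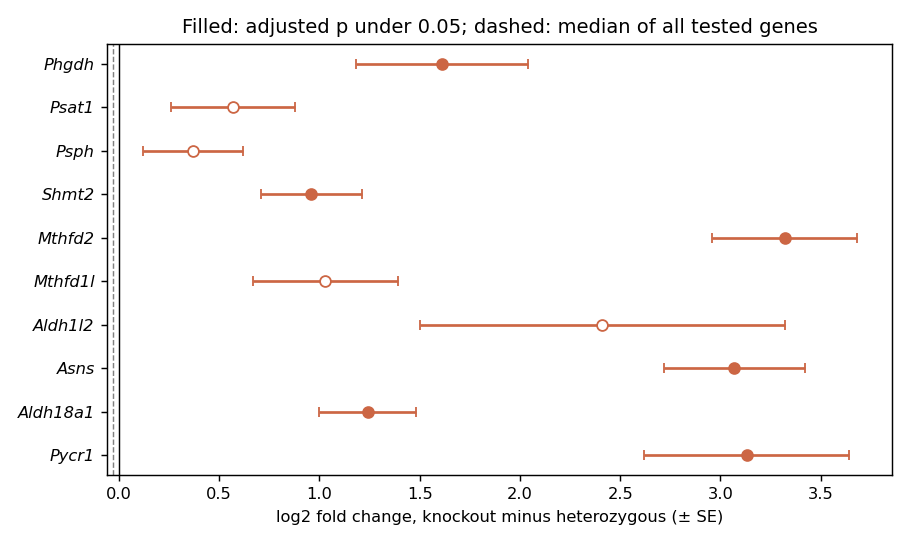
Log2 fold change of each enzyme gene, knockout minus heterozygous (x axis), with its SE, from the edgeR fit over all tested genes. Filled points passed an adjusted p of 0.05, and the dashed line is the median of all tested genes at -0.03. Mthfd2, Pycr1 and Asns stand above 3, and Psph and Psat1 lie nearest 0.

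Serine synthesis begins with Phgdh, the dehydrogenase of 3-phosphoglycerate (chromosome 3 from 98313171 to 98339969, GRCm38). It was at 97.0, 32.7, 64.4 and 60.5 CPM in heterozygous libraries 1 to 4 and at 204, 155, 74.5 and 342 CPM in knockout libraries 1 to 4. Knockout 3 lay below heterozygous 1, so the groups overlapped. Phgdh rose 3.05-fold, from 63.7 ± 26.3 to 194 ± 112 CPM (SD, n = 4 each; log2 fold change 1.61 ± 0.43, SE; edgeR adjusted p = 0.0405). Its call held in 2 of 8 leave-one-out fits, those without heterozygous 1 or knockout 3. In heterozygous libraries 1 to 4 the radial glia score was 5.59, 4.40, 5.20 and 4.64, in the same order as Phgdh. Psat1 and Pycr1 had this order too, and the other enzyme genes did not. The part of radial glia transcripts in these levels was not tested. Among knockout libraries, knockout 3 had the highest score, 4.47, and the lowest Phgdh level. Knockout 4, the highest for Phgdh, had a score of 3.06. With the radial glia score as a covariate the log2 fold change of Phgdh was 1.47 ± 0.83 (edgeR adjusted p = 0.486). Of the 50-base windows of the Phgdh transcript, 63.1% occur also in annotated transcripts of other loci, most of them in Gm7901. That locus has no row under this name in the raw counts. The level of Phgdh thus depends on how reads with several matches were counted.

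The other enzymes of the serine branch, Psat1 and Psph, did not pass the test. The aminotransferase gene Psat1 (chromosome 19 from 15905123 to 15925059) was at 123, 65.1, 91.1 and 70.2 CPM in heterozygous libraries, against 114, 139, 67.0 and 199 CPM in the knockouts. Psph, the phosphatase that releases serine (chromosome 5 from 129765558 to 129787443), was at 20.9, 14.0, 23.3 and 25.9 CPM in heterozygous libraries, against 28.0, 28.3, 19.5 and 33.0 CPM in the knockouts. In both, knockout 3 fell among the heterozygous libraries while knockout 4 was above them all. The log2 fold changes were 0.57 ± 0.31 for Psat1 and 0.37 ± 0.25 for Psph (edgeR adjusted p = 0.275 and 0.381). Psph shares 452 exonic bases with Cct6a on the opposite strand, a chaperonin gene at 389 ± 33.1 and 434 ± 44.3 CPM, and as the strand setting of the counting was not given in the sources used here, the level of Psph is uncertain.

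In the mitochondrial folate pathway, Shmt2, the serine hydroxymethyltransferase of mitochondria (chromosome 10 from 127517123 to 127522444), rose 1.95-fold. Its heterozygous libraries were at 131, 165, 141 and 114 CPM and its knockout libraries at 271, 265, 150.1 and 386 CPM. Knockout 3 lay below heterozygous 2, and the other 3 knockout libraries were above all heterozygous ones. The log2 fold change was 0.96 ± 0.25 (edgeR adjusted p = 0.0364), and the call held in 1 of 8 leave-one-out fits, the fit without knockout 3. With the other-cell score as a covariate the log2 fold change was -0.44 ± 0.47.

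Mthfd2, a dehydrogenase and cyclohydrolase that is abundant in embryonic and dividing cells and scarce in most adult tissues (chromosome 6 from 83305704 to 83326011), had the largest fitted fold change of the 10. Its heterozygous libraries were at 10.2, 9.13, 11 and 8.21 CPM, a narrow range. Its knockout libraries were at 98.5, 95.6, 37.5 and 152 CPM, so the lowest of them was far above the highest heterozygous one. Mthfd2 rose 9.95-fold from 9.62 ± 1.20 to 95.8 ± 46.7 CPM (log2 fold change 3.32 ± 0.36; edgeR adjusted p = 9.79e-04). It was called in all 8 leave-one-out fits, with log2 fold changes of 3 to 3.59. With the other-cell score as a covariate it was 1.51 ± 0.72 (adjusted p = 0.676).

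Mthfd1l, the mitochondrial ligase that releases formate (chromosome 10 from 3972892 to 4167081), was at 12.3, 6.05, 15.9 and 14.9 CPM in heterozygous libraries, against 31.3, 16.5, 17.5 and 35.3 CPM in the knockouts. The groups did not overlap, though knockout 2 and 3 were close to heterozygous 3 and 4. Its log2 fold change of 1.03 ± 0.36 missed the threshold (edgeR adjusted p = 0.0998), while DESeq2 called it (adjusted p = 0.0483). Aldh1l2, the mitochondrial formyltetrahydrofolate dehydrogenase (chromosome 10 from 83487447 to 83534146), was scarce, at 0.95, 1.70, 1.28 and 0.499 CPM in heterozygous libraries, against 4.29, 1.22, 1.08 and 16.8 CPM in the knockouts. Knockout 2 and 3 lay within the heterozygous range, and knockout 4 was 15.5 times knockout 3. Its log2 fold change of 2.41 ± 0.91 was not called (edgeR adjusted p = 0.123; DESeq2 adjusted p = 0.0415) and ran from 1 to 2.77 when 1 library was left out. Aldh1l2 shares 1056 exonic bases with D10Wsu102e on the opposite strand, which was at 20.9 ± 3.06 and 20.5 ± 5.96 CPM, so its low level may include reads of that gene.

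Asns, the asparagine synthetase gene (chromosome 6 from 7675165 to 7693209), was at 43.4, 47.4, 39.4 and 45.9 CPM in heterozygous libraries, against 366, 373, 144 and 590.2 CPM in the knockouts. Knockout 3 was the lowest of its group and still well above every heterozygous library. The log2 fold change was 3.07 ± 0.35 (edgeR adjusted p = 0.00107), and it stayed between 2.74 and 3.35 and was called when any 1 library was left out. The SD between libraries was 3.49 CPM in heterozygous and 182 CPM in knockout cells. With the radial glia score as a covariate it was 2.15 ± 0.46 (adjusted p = 0.0735), and with the other-cell score 1.09 ± 0.62 (adjusted p = 0.749).

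Both enzymes of the proline branch rose. Aldh18a1, the synthase that reduces glutamate to the proline precursor (chromosome 19 from 40550257 to 40588463), was at 56.6, 59.2, 65.7 and 46.4 CPM in heterozygous libraries, against 138, 88.5, 111 and 201 CPM in the knockouts. Its groups did not overlap, and it rose 2.37-fold (log2 fold change 1.24 ± 0.24; edgeR adjusted p = 0.0111). Pycr1, a mitochondrial reductase of the last step (chromosome 11 from 120638998 to 120643748), was at 12.5, 2.76, 9.56 and 3.16 CPM in heterozygous libraries, against 74.4, 34.4, 44.7 and 92.0 CPM in the knockouts. Heterozygous 2 and 4 were several times below heterozygous 1 and 3, and all 4 lay below every knockout library. Pycr1 rose 8.75-fold from 7.01 ± 4.83 to 61.4 ± 26.5 CPM (log2 fold change 3.13 ± 0.51; edgeR adjusted p = 0.00551). Aldh18a1 and Pycr1 were called in all 8 leave-one-out fits. Without both heterozygous 2 and knockout 1 Aldh18a1 was not called, at a like log2 fold change with a wider SE (1.26 ± 0.31; edgeR adjusted p = 0.0752). With the other-cell score as a covariate their log2 fold changes were 0.71 ± 0.58 and 3.72 ± 1.29 (adjusted p = 0.860 and 0.571).

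Levels can be ranked between genes only per length, here as CPM per kilobase of the longest coding transcript in GENCODE M21. On this scale Shmt2 was highest in heterozygous cells at 60.3 ± 9.31, followed by Phgdh and Psat1 at 33.7 ± 13.9 and 33.4 ± 10.1, which did not differ beyond their spread. Asns, Aldh18a1 and Psph came next at 21.8 ± 1.73, 16.2 ± 2.27 and 12.1 ± 2.94, and Mthfd2, Mthfd1l, Pycr1 and Aldh1l2 were lowest at 4.61 ± 0.576, 3.34 ± 1.20, 2.41 ± 1.66 and 0.184 ± 0.0843. In knockout cells Asns led at 183 ± 90.3, ahead of Shmt2 at 117 ± 42.1 and Phgdh at 102 ± 59.2. The SD ranges of these 3 overlapped, but the genes were measured in the same libraries, and Asns lay above both others in every knockout library. Psat1 and Mthfd2 were at 49.6 ± 20.9 and 45.9 ± 22.4, Aldh18a1 at 38.3 ± 13.8 and Pycr1 at 21.1 ± 9.09. The SD ranges again overlapped between neighbours, though Aldh18a1 lay above Pycr1 in every knockout library. Psph, Mthfd1l and Aldh1l2 were lowest at 15.7 ± 3.23, 6.83 ± 2.58 and 0.969 ± 1.23. The genes that were rare in heterozygous cells thus included both strongly raised ones (Mthfd2, Pycr1) and ones that were not called (Mthfd1l, Aldh1l2).

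The knockout libraries shared their highest library across the enzymes, but not a full order. Knockout 4 was the highest knockout library for all 10 genes. Knockout 3 was the lowest for 7 and knockout 2 for the other 3, Mthfd1l, Aldh18a1 and Pycr1. Among heterozygous libraries, 1, 2 and 3 were each highest for 3 genes and 4 for 1, while heterozygous 2 was lowest for 5 genes, heterozygous 4 for 4 and heterozygous 3 for 1. The mean log2 CPM of the 10 genes was 4.70, 4.19, 4.68 and 4.26 in heterozygous libraries 1 to 4 and 6.30, 5.85, 5.29 and 6.95 in knockout libraries 1 to 4. Among knockout libraries, knockout 4 had the lowest other-cell score, 2.31, and knockout 3 the highest, 3.6, with 2.47 in knockout 2 and 3.18 in knockout 1. Among knockout libraries the enzyme mean was thus highest where this score was lowest and lowest where it was highest, and knockout 1 and 2 broke this order. Single lists differed: the radial glia score was lowest in knockout 2 (2.54, against 3.06 in knockout 4) and the red cell score in knockout 3 (0.06). Heterozygous libraries 1 to 4 went the other way. Their other-cell scores of 5.24, 4.43, 4.83 and 4.8 had the same order as their enzyme means. The cause of either order was not tested.

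**Figure D3:**
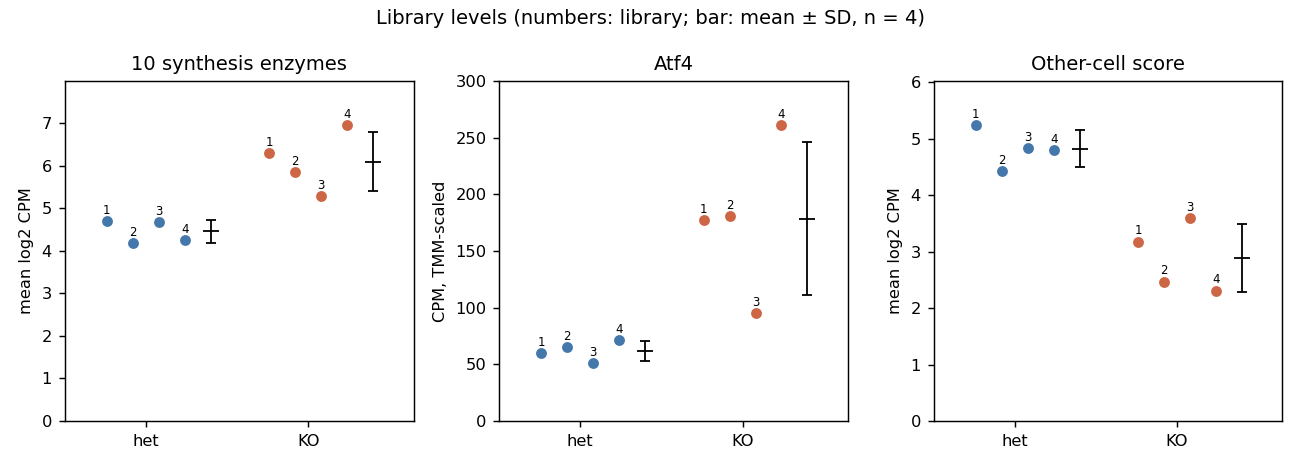
Mean log2 CPM of the 10 enzyme genes (left), level of Atf4 in CPM (middle) and other-cell score in mean log2 CPM (right) in each library, with mean ± SD per genotype and all axes from 0. Knockout 4 is highest in the left and middle panels and lowest in the right one, and knockout 3 has the lowest enzyme mean of its group.

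Atf4 itself was measured in the same libraries. It was at 59.6, 65.2, 51.1 and 71.3 CPM in heterozygous libraries, against 177, 181, 95.5 and 261 CPM in the knockouts. The groups did not overlap, knockout 4 was again highest and knockout 3 lowest, and Atf4 rose 2.89-fold (log2 fold change 1.53 ± 0.26; edgeR adjusted p = 0.00644). With the other-cell covariate its log2 fold change was 0.09 (adjusted p = 0.994), and without both heterozygous 2 and knockout 1 it was 1.58 ± 0.34 (edgeR adjusted p = 0.0549). Of 14 genes for ATF4 and its kinases and partners 3 rose and 0 fell, with a median log2 fold change of 0.53, namely Atf4, Atf3 (2.02-fold) and Atf5 (4.51-fold). The eIF2 kinase genes Eif2ak3 and Eif2ak4 had log2 fold changes of 0.64 ± 0.31 and 0.95 ± 0.29, neither past the threshold (edgeR adjusted p = 0.220 and 0.0618).

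The same fit called 7 of 14 other tested ATF4 targets higher and 0 lower, with a median log2 fold change of 0.98. Targets that were not called ran from Stc2 at 3.09 ± 0.89 to Ddit4 at -0.73 ± 0.36 (edgeR adjusted p = 0.0528 and 0.228). Ddit4 was lower in every knockout library than in any heterozygous one. Eif4ebp1, a repressor of cap-dependent translation, rose 5.26-fold, the pseudokinase gene Trib3 16.7-fold, the glutathione-degrading enzyme gene Chac1 8.90-fold and the stress-induced regulator gene Sesn2 2.94-fold. These targets were listed with earlier results of these libraries known, so their direction is not independent evidence. The calls of Atf5 and Sesn2 each held in 5 of 8 leave-one-out fits. That of Sesn2 was lost without heterozygous 1, knockout 1 or knockout 4.

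By the root mean square distance between library profiles (log2 CPM minus the gene's own mean, 8 libraries), the genes closest to the mean profile of the 10 enzymes were Jdp2, Sesn2, Gpihbp1, Atf4, Pus7l and Aen. Their distances were 0.25, 0.26, 0.30, 0.33, 0.35 and 0.36, against a median of 0.98 over 10073 candidate genes. The single enzymes lay between 0.33 (Phgdh) and 1 (Pycr1) from their own mean profile. Jdp2, a bZIP factor gene, was at 14.1 ± 2.27 CPM in heterozygous libraries, against 41.1 ± 15.4 CPM in the knockouts. Gpihbp1, the capillary anchor of lipoprotein lipase, was at 9.32 ± 1.03 and 38.8 ± 17.9 CPM. Likeness was measured over libraries of both genotypes, so any gene with a similar difference between genotypes comes close.

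Each of 4 enzyme genes was also compared with its closest paralog in the same library, as a log2 ratio of CPM with a pseudocount of 0.5, which is hardly touched by library scaling. The ratio was higher in knockout libraries for 3 of these 4 pairs, without overlap between genotypes (exact two-sided permutation test over 70 arrangements, p = 0.0286 each, the smallest this design allows; 0.0357 adjusted over the 5 pairs computed, of which 4 are reported).

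Shmt2 over its cytosolic paralog Shmt1 was at 2.34, 2.80, 2.51 and 2.06 in heterozygous libraries, against 4.25, 4.05, 3.95 and 4 in the knockouts. The knockout libraries, which differed 2.57-fold in Shmt2 itself, were nearly level in this ratio (mean 4.06 ± 0.13 SD, against 2.43 ± 0.31 in heterozygous libraries). The difference was 1.64 on the log2 scale. Shmt1 was at 25.0 ± 1.52 and 15.5 ± 6.03 CPM and was not called by itself (log2 fold change -0.68 ± 0.28; edgeR adjusted p = 0.151), so the ratio joins a higher Shmt2 with a lower mean of Shmt1.

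Mthfd2 over Mthfd2l, a mitochondrial paralog of like activity, was at -0.67, 0.87, -0.13 and -0.24 in heterozygous libraries, against 4.10, 4.66, 2.15 and 4.84 in the knockouts. The paralogs were thus at like CPM in heterozygous cells, and Mthfd2 exceeded Mthfd2l in all 4 knockout libraries. The difference was 3.98 on the log2 scale. Mthfd2l was at 10.8 ± 4.85 and 5.36 ± 1.97 CPM and was not called (edgeR adjusted p = 0.173).

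Aldh1l2 over its cytosolic paralog Aldh1l1 differed by 3.52 on the log2 scale, with -2.90 ± 0.98 in heterozygous and 0.62 ± 1.97 in knockout libraries. Both genes were low, Aldh1l1 had 0 counts in knockout 2, and Aldh1l1 is itself a marker of astroglia, whose progenitor markers were lower in the same libraries (radial glia score 4.40 to 5.59 against 2.54 to 4.47). Their part in this ratio was not tested. Mthfd1l over cytosolic Mthfd1 did not differ beyond the spread between libraries, at -1.61 ± 0.81 and -1.37 ± 0.16 (difference 0.25, exact permutation p = 0.657, adjusted 0.657). Mthfd1 had a log2 fold change of 0.80 ± 0.27 (edgeR adjusted p = 0.0869), close to the 1.03 ± 0.36 of Mthfd1l.

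**Figure D4:**
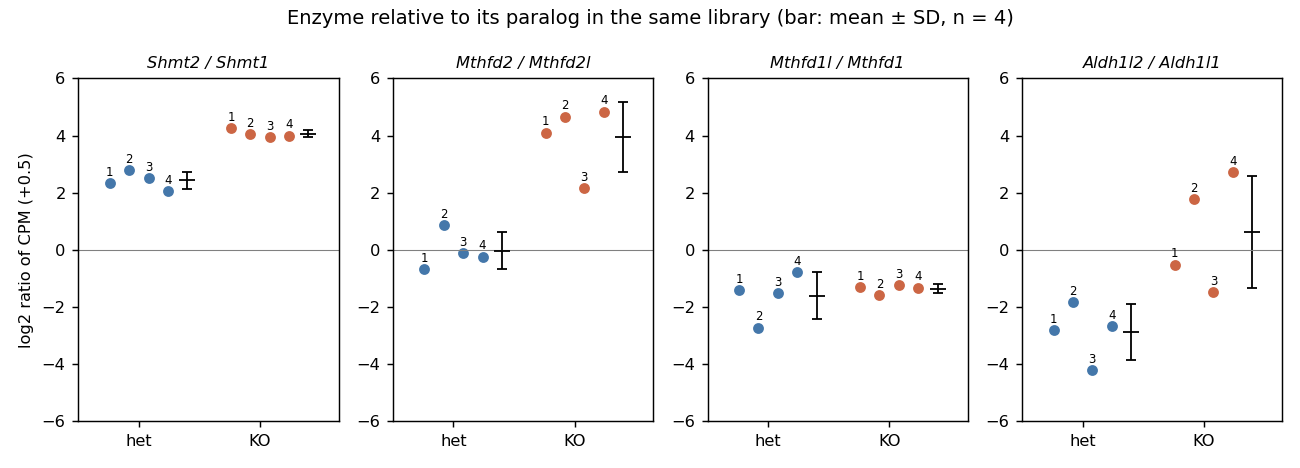
Log2 ratio of each enzyme gene to its paralog (y axis, CPM plus 0.5) in heterozygous (het, blue) and knockout (KO, orange) libraries, numbered 1 to 4, with mean ± SD per genotype. The genotypes are apart for Shmt2/Shmt1, Mthfd2/Mthfd2l and Aldh1l2/Aldh1l1 and overlap for Mthfd1l/Mthfd1.

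The cytosolic folate enzymes gave 0 calls among 11 tested genes (edgeR; median log2 fold change 0.24). Gart of purine synthesis was at 69.3 ± 12.7 and 101 ± 15.6 CPM, and thymidylate synthase Tyms at 83.3 ± 6.52 and 82.5 ± 37.1 CPM. At an unadjusted p under 0.05 (edgeR) there were 4 of the 11, Gart, Mthfd1, Shmt1 and Aldh1l1, against 3473 of all 13540 tested genes. DESeq2 called 2 (Gart and Mthfd1, adjusted p = 0.0428 and 0.0367), against 2221 of all 13540. For limma voom it was 0, against 1454 of all 13540. Among 7 genes for folate entry and retention 0 were called (edgeR, and likewise 0 with DESeq2 and limma voom; 1 had an unadjusted p under 0.05), and the median log2 fold change was 0.03. The reduced folate carrier Slc19a1 was at 50.8 ± 10.2 and 52.0 ± 20.2 CPM, and Ggh, which trims folate polyglutamates, at 36.0 ± 9.44 and 48.8 ± 12.0 CPM.

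Of 10 other genes of mitochondrial one-carbon metabolism and glycine cleavage 1 rose and 0 fell (median log2 fold change 0.13). This was Gcsh, the lipoyl carrier protein of the glycine cleavage system. It was at 81.9, 77.5, 77.4 and 75.1 CPM in heterozygous libraries, against 184, 181, 155 and 167 CPM in the knockouts. Both genotypes were tight, and Gcsh rose 2.2-fold (log2 fold change 1.14 ± 0.12; edgeR adjusted p = 9.79e-04), with a call in all 8 leave-one-out fits. Gldc and Amt, enzymes of the same system, had mean levels of 3.81 and 2.91 CPM in heterozygous libraries, against 1.45 and 3.24 CPM in knockout libraries, and neither passed (edgeR adjusted p = 0.424 and 0.886).

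Of 8 other tested genes for proline, ornithine and arginine 3 rose and 0 fell (median log2 fold change 0.43). P4ha1, a collagen prolyl hydroxylase subunit, rose 2.24-fold from 48.1 ± 7.49 to 108 ± 26.7 CPM. Prodh, which degrades proline, rose 2.79-fold from 20.1 ± 9.15 to 56.3 ± 3.18 CPM, and Oat, the ornithine aminotransferase, 1.5-fold. The call of Oat held in 1 of 8 leave-one-out fits, that without knockout 4. Genes of proline synthesis and Prodh, of its breakdown, were thus both higher. Aldh4a1 of the same list was not called (log2 fold change 0.35 ± 0.23; edgeR adjusted p = 0.374).

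Of 9 genes for aspartate, glutamate and glutamine 0 rose and 1 fell (median log2 fold change 0.01). Glul, glutamine synthetase, was at 256, 315, 281 and 388 CPM in heterozygous libraries, against 141, 117, 139 and 111 CPM in the knockouts, without overlap. It fell 2.44-fold (log2 fold change -1.29 ± 0.16; edgeR adjusted p = 0.00191) and is also 1 of the 13 radial glia markers. Glutamine is the nitrogen donor of Asns, which rose in the same libraries. Of 5 tested genes of the methionine cycle and transsulfuration 0 were called (edgeR, and likewise 0 with DESeq2 and limma voom). At an unadjusted p under 0.05 (edgeR) there was 1 of the 5, against 3473 of all 13540 tested genes. Mat2a and Mat2b, subunits of the enzyme that makes S-adenosylmethionine, had levels of 247 ± 16.4 and 81.3 ± 8.96 CPM in heterozygous libraries, against 285 ± 16.8 and 86.7 ± 15 CPM in the knockouts.

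Of 12 glycolysis genes, from the steps before and after 3-phosphoglycerate, 3 rose and 0 fell (median log2 fold change 0.41). Gpi1 rose 1.69-fold, Gapdh 1.41-fold and Pkm 1.39-fold. Gpi1 lost its call without knockout 1 or knockout 4, and Gapdh and Pkm kept theirs in 1 and 2 of 8 leave-one-out fits. Pgam1, the step after 3-phosphoglycerate, had a log2 fold change of 0.08 ± 0.11 (edgeR adjusted p = 0.699).

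Carriers of the substrates moved both ways, with 3 of 12 rising and 2 falling (median log2 fold change 0.01). Slc7a3, a carrier of cationic amino acids, was at 0 CPM in heterozygous 1 and 2, 0.0854 and 1.55 CPM in heterozygous 3 and 4, and 49.1, 17.7, 17.2 and 88.6 CPM in knockout libraries 1 to 4. The glycine carrier Slc6a9 was at 4.37 ± 1.42 and 18.3 ± 10.9 CPM and rose 4.16-fold, though knockout 3 overlapped heterozygous cells. Its call held in 3 of 8 leave-one-out fits. Slc38a5, a carrier of serine, glycine, asparagine and glutamine, fell 6.25-fold, from 3377 ± 1019 to 540 ± 103 CPM (log2 fold change -2.64 ± 0.24), and Slc1a4, which carries serine, had a log2 fold change of -0.82 ± 0.20 (edgeR adjusted p = 0.0308). Slc7a6 rose 1.69-fold.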

How the data were processed

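RNA was taken from sorted cells, amplified with SMART-Seq v4 and made into Nextera XT libraries, which were read as single reads of 50 bases, per the labels' protocols. The authors deposited 1 table of raw counts per gene. Tools named in the submitters' processing notes are TopHat2 0.7, Cufflinks 2.2.1 and the mm10 genome. How reads were counted (program, strand, reads with several matches) was not given in the sources used here.

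From the counts, genes were kept by the edgeR filter (minimum count 10, minimum total 15; 13540 genes, 99.9% of counts), scaled by TMM and tested between genotypes with the robust quasi-likelihood test of edgeR 4.0.16 in R 4.3.3, with Benjamini-Hochberg adjustment over all tested genes. The SE of a log2 fold change was taken as its absolute value over the root of the F statistic. CPM is computed from TMM-scaled library sizes. Scores are means of log2 CPM with a prior count of 2. No 2 libraries of a genotype were the same library sequenced again (lowest chi-square over its degrees of freedom 28.9). This check cannot tell whether separate libraries came from the same embryo. Depths of 9.11 to 35.9 M counts leave the spread between libraries as the main error except for genes near 1 CPM. Alternatives were DESeq2 1.42.0, limma 3.58.1 voom, other scalings and filters, a replicate block, marker scores as covariates and left-out libraries. The scripts were tested on simulated data.

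The enzymes and all lists were chosen with earlier results of these data known. Beside the enzymes, the genes named are Flvcr2, the paralogs, up to 4 called genes per list in order of p (in lists with none, the 2 with the highest level) and the 6 genes nearest in profile, among genes with a mean of at least 5 CPM and no Gm or Rik name. Vim, Gldc, Amt, Pgam1, Slc1a4, Eif2ak3, Eif2ak4, Aldh4a1, Stc2, Ddit4 and the marker genes named singly were chosen after their values were seen. Promoter windows are RefSeq's for GRCm38.p6. Shared windows and gene lengths come from GENCODE M21 transcripts. Paralog ratios were adjusted over 5 pairs, and 1 of them is not reported here.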

Additional observations from a re-analysis of the deposited data

Results flagged for a closer look

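In 92 groups of 4 libraries (46 named genes in each genotype), 1 library stood apart from the other 3 in 4 groups, by Dixon's criterion. Chance alone gives about 1 in 20. All 4 were heterozygous groups. Gart was at 50.4 CPM in heterozygous 1 and at 73.0 to 77.3 CPM in the others. Serinc3 was at 847 CPM in heterozygous 1 and at 1082 to 1124 CPM in the others. Slc7a3 was at 1.55 CPM in heterozygous 4 and at 0 to 0.0854 CPM in the others. Aldh1l1 was at 32.7 CPM in heterozygous 3 and at 5.94 to 9.78 CPM in the others. None of the 10 enzyme genes met the criterion in either genotype.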

How the results depend on the processing

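Against 1293 genes and 6 enzyme genes called by edgeR, the radial glia covariate left 103 and 0, the other-cell covariate 0 and 0, an adjusted p under 0.01 352 and 3, at least 2-fold 793 and 5, and DESeq2 2221 and 8. Leaving out heterozygous 2 and knockout 1 left 300 and 3, and heterozygous 1 and knockout 2 842 and 4. Without 1 library in turn, 579 (without knockout 1) to 1347 genes (without knockout 3) and 4 to 6 enzyme genes were called, with 625 genes without knockout 4 and 787 and 790 without heterozygous 1 and 3. The numbers did not pair the libraries (correlations of deviations 0.06, 0.21, -0.05 and 0.02; 2 of 8 libraries correlated best with their own number). With the replicate block 868 genes and 5 enzyme genes were called, Shmt2 losing its call (edgeR adjusted p = 0.0848). Under that pairing the exact sign-flip test of the ratios kept differences of 1.64 (Shmt2), 3.98 (Mthfd2) and 3.52 (Aldh1l2), each with an adjusted p of 0.156. With 4 pairs this test cannot give p under 0.125, so it could not pass the threshold and says nothing about stability. Leaving out 1 library gave 1.52 to 1.76, 3.68 to 4.58 and 2.81 to 4.23, with adjusted p of 0.0357 to 0.0714, and -0.13 (without heterozygous 2) to 0.52 for Mthfd1l.

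Of 46 named genes over 20 settings, 33 log2 fold changes turned sign, 0 of them called in that setting by edgeR, DESeq2 or limma voom. With the other-cell covariate these were Psat1 -0.50, Psph -0.11, Shmt2 -0.44, Aldh1l2 -1.72, Gart -0.19, Slc19a1 -1.65, Mat2a -0.13, Slc6a9 -0.46, Mthfd2l 0.94, Mthfd1 -0.05 and Aldh1l1 0.50. With the radial glia covariate they were Slc19a1 -0.80, Mat2b -0.06, Mthfd2l 0.15 and Aldh1l1 0.15. Slc19a1 was at -0.09 with library size alone, -0.04 with the block, -0.05 with limma voom and -0.11 without heterozygous 1 and knockout 2. Mat2b was at -0.03 with library size alone and -0.07 without heterozygous 1 and knockout 2. Tyms was at 0.02 without the filter and 0.12 without heterozygous 2 and knockout 1. Leaving out 1 library gave -0.36 to 0.17 for Tyms, -0.20 to 0.27 for Slc19a1 and -0.01 to 0.18 for Mat2b. The cause of these changes was not tested. Depth limits only the scarcest genes, such as Aldh1l2 with 9 to 30 counts per heterozygous library.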

Other observations

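Of 8 tested genes that use or break down serine 2 rose and 0 fell (median log2 fold change 0.27). Ptdss2, which exchanges serine into phosphatidylserine, was at 108 ± 11.6 CPM in heterozygous libraries, against 159.8 ± 10.1 CPM in the knockouts (log2 fold change 0.57 ± 0.13; edgeR adjusted p = 0.025). Serinc3, a membrane protein of the serine incorporator family, was at 1041 ± 130.4 and 1544 ± 256 CPM (log2 fold change 0.57 ± 0.16; edgeR adjusted p = 0.049). Their calls held in 3 and 2 of 8 leave-one-out fits.

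Carbon units are drawn on by dividing cells, and 10 proliferation markers were measured beside the enzymes. By edgeR 0 of them were called higher and 0 lower, with a median log2 fold change of -0.16. Their summed level was 1165 to 1319 CPM in heterozygous libraries, against 822 to 1493 CPM in the knockouts, so the genotypes overlapped. Their mean log2 CPM was 6.08, 6.98, 6.26 and 6.69 in knockout libraries 1 to 4, in which that of the 10 enzymes was 6.30, 5.85, 5.29 and 6.95. Of 8 fibroblast and meningeal markers, whose cells also make collagen, 0 were called (edgeR), and their summed level was 231 to 425 CPM in heterozygous libraries, against 107 to 623 CPM in the knockouts.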
